A study of Mus musculus with 7 samples.

Results

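The 10 apical polarity genes examined here encode prominin-1 (*Prom1*) and proteins of the Par complex (*Pard3*, *Pard6a*, *Pard6b*, *Pard6g*, *Prkci*), the Crumbs family (*Crb1*, *Crb2*) and the Numb family (*Numb*, *Numbl*). They were chosen by symbol, and each of the 10 matched 1 row of a count table of 38124 genes. All 10 were among the 16522 genes with enough counts to be tested. The cells were High RFP cells, those with the strongest red fluorescence, sorted from the neocortex of E15.5 embryos of the *Tis21*-CreERT2 mouse line. These embryos had been treated with tamoxifen and electroporated at E13.5, 48 hr earlier. The 3 control libraries (replicates 1, 2 and 4) came from neocortex given a floxed control construct expressing RFP, and the 4 libraries labelled Sox9 (replicates 1 to 4) from neocortex given a floxed construct that also encodes Sox9. The comparison asks how the transcripts of these cells differ when Sox9 is expressed conditionally.

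Both groups carried the same Cre allele and received the same drug. The *Tis21* locus drives Cre in apical radial glia that are about to produce basal progenitors, so the sorted cells are those apical cells and the progeny derived from them. The submitters call the cells sorted neural progenitors, but neuron markers such as *Dcx* and *Tubb3* summed to between 13324 and 17965 CPM per library, where radial glia markers summed to 476 to 1280 CPM and intermediate progenitor markers to 542 to 830 CPM. Transcripts of all 3 kinds of cell were therefore present. The cells are referred to by their sort gate, as High RFP cells. CPM are counts scaled to a common library size of 1000000 with TMM factors. The number of reads assigned to genes ranged from 4429704 to 12907778 per library. The TMM factor was 0.893 to 0.941 in control and higher, 1.01 to 1.10, in those labelled Sox9 (exact permutation test over 35 splits, two-sided, p = 0.0286, the smallest p the design allows). The level of *Sox9* mRNA itself was 40.0 CPM in the libraries labelled Sox9 and 63.9 CPM in control, and thus did not exceed the control (log2 fold change -0.68, adjusted p = 0.0493, edgeR). A count per gene pools reads of the construct and of the endogenous gene, and why the value was lower was not tested. It does not settle how much Sox9 the cells made. By qPCR on cells sorted with the same gates, the paper reports *Sox9* mRNA as highest in High RFP cells given the Sox9 construct. It reports almost none in control cells. Group names follow the labels. *Eomes*, the intermediate progenitor gene that encodes Tbr2, was at 37.5 ± 10.7 CPM (SD, n = 3) in control and 7.86 ± 1.63 CPM (SD, n = 4) in the libraries labelled Sox9, and *Olig2*, of the oligodendrocyte lineage, was covered by 0, 2 and 0 reads in the controls against 24, 6, 12 and 7 in those labelled Sox9. The submitters describe the libraries as biological replicates. The methods describe each sort as a pool of several embryos whereas the figure legends give single neocortices, so the p-values measure the spread between libraries, whichever they hold.

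An apical radial glial cell holds on to the ventricular surface by a small apical membrane. The Par complex and the Crumbs proteins sit at or just above the belt of adherens junctions around this membrane and keep apical separate from basolateral. Numb proteins are endocytic adaptors that act on Notch and on cadherin at this belt, and prominin-1 is a membrane protein of apical protrusions and the primary cilium. A cell that becomes a basal progenitor lets go of the ventricular surface and gives up this apical domain.

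Among the 10 genes, *Prom1* alone passed the threshold, a Benjamini-Hochberg adjusted p-value under 0.01 in edgeR's quasi-likelihood test, and in the libraries labelled Sox9 it fell to 0.421 of its mean CPM in control. In total 1 of 10 was lower and 0 of 10 were higher, beside 3.88% of 14267 protein-coding genes called lower and 9.96% called higher. At an unadjusted p-value under 0.05, 2 were lower and 1 was higher, where 19.4% of protein-coding genes were lower and 23.0% higher. DESeq2 called 1 lower and 0 higher. *Crb1* had the largest positive difference and missed the threshold, though it passed at an adjusted p under 0.05, where 18.6% of protein-coding genes were higher and 12.2% lower. The median log2 fold change of the 10 genes was -0.18, against -0.06 over all protein-coding genes tested. This median was not stable: it was 0.04 without control replicate 2, -0.34 without control replicate 1, and -0.000257 over the 9 genes with at least 10 counts in every library.

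**Figure D1:**
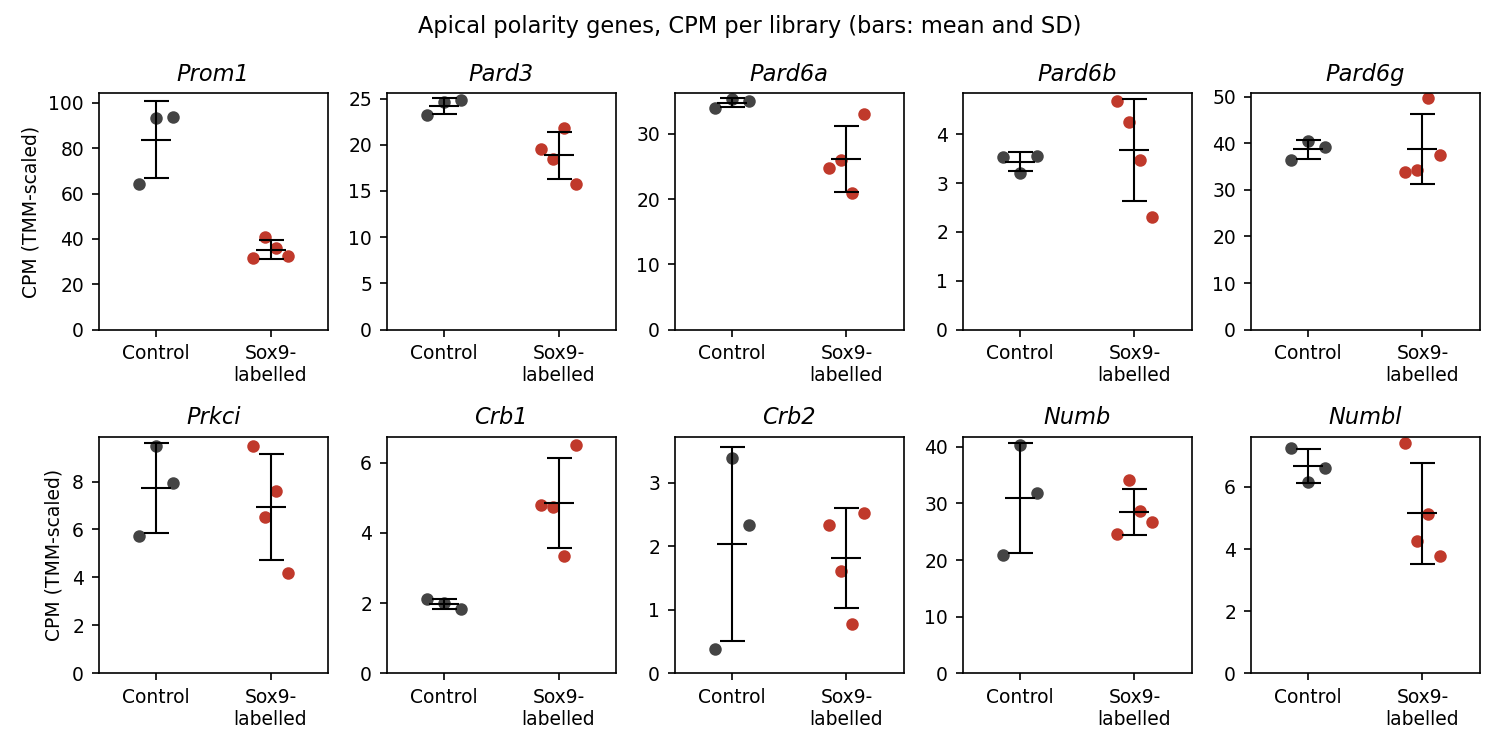
CPM (TMM-scaled) of each of the 10 genes in each library, control in grey (3 libraries) and labelled Sox9 in red (4 libraries), with the mean and SD as bars and every vertical axis starting at 0. The libraries labelled Sox9 lie below all controls for *Prom1*, *Pard3* and *Pard6a* and above all controls for *Crb1*, and overlap the controls for the other 6 genes.

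*Prom1* (ENSMUSG00000029086) lies on the reverse strand of chromosome 5 from 43993620 to 44102032 (GRCm38), with 7.18 kb of exons in a span of 108 kb. The control libraries had 673, 1073 and 922 counts on *Prom1*, and the libraries labelled Sox9 had 230, 434, 321 and 155. Scaled to library size, this was 64.3, 93.2 and 93.8 CPM in control and 31.6, 41.0, 35.9 and 32.5 CPM in the libraries labelled Sox9. The groups did not overlap, and the lowest control library, replicate 1, was still well above the highest library labelled Sox9. The mean was 83.8 ± 16.9 CPM (SD, n = 3) in control and 35.2 ± 4.26 CPM (SD, n = 4) in the libraries labelled Sox9. The log2 fold change was -1.24 (standard error 0.16, 95% interval -1.58 to -0.90, adjusted p = 0.000206, edgeR), which corresponds to between 0.333 and 0.535 of the control level. Under every alternative in which it was tested, *Prom1* kept this call, with log2 fold changes from -1.42 to -1.02. An annotated antisense transcript, *Gm16401*, overlaps *Prom1* exons and held 3 to 20 counts per library. The sources used here do not say whether counting used strand, and these counts are few beside those of *Prom1*.

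*Crb1* (ENSMUSG00000063681), which encodes a large transmembrane protein whose short tail recruits the Pals1 scaffold, lies on the reverse strand of chromosome 1 from 139197056 to 139377100 (GRCm38). It was covered by few reads, with 22, 23 and 18 counts in the controls against 35, 50, 30 and 31 in those labelled Sox9. These were 2.10, 2.00 and 1.83 CPM in control and 4.81, 4.72, 3.35 and 6.50 CPM in the libraries labelled Sox9. All 4 libraries labelled Sox9 were above all 3 controls. The mean was 1.98 ± 0.137 CPM (SD, n = 3) in control and 4.85 ± 1.29 CPM (SD, n = 4) in the libraries labelled Sox9. The log2 fold change of 1.27 (standard error 0.36, 95% interval 0.50 to 2.03) had an adjusted p of 0.0160 in edgeR and missed the threshold. In the alternatives its log2 fold change lay between 0.58 and 1.44 and its adjusted p between 0.00752 and 0.269, the last after cyclic loess normalization.

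For the pair of genes with the largest differences, the genomic sequence just upstream of an annotated RefSeq start is shown as a reference for readers, since Sox9 binds DNA through short Sox motifs. Sequences are those of RefSeq on GRCm38.p6, without annotated exons, printed 5′ to 3′ on the gene's own strand. The capitals mark the motifs ACAAAG and AACAAT on either strand, the latter reading ATTGTT when it is on the other strand. The *Prom1* stretch lies inside the span of the gene, before a start that is internal to it, whereas that of *Crb1* lies outside the gene, so the 2 are not matched in position. *Crb1* is shown for chr1:139377101-139377326 and *Prom1*, upstream of the second of its RefSeq starts, for chr5:44094769-44095018.
Crb1: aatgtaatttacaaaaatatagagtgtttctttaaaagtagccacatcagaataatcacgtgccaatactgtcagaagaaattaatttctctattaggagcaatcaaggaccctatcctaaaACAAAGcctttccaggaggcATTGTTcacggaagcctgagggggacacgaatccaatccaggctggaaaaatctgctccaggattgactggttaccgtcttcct
Prom1: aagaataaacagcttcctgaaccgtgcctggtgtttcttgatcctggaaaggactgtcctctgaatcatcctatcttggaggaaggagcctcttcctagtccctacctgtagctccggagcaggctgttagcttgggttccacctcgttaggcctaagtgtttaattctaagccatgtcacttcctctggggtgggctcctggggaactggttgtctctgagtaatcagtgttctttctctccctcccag
The *Crb1* stretch held ACAAAG beginning 128 bases and ATTGTT beginning 108 bases before the RefSeq start. Neither motif was found in the *Prom1* stretch. RefSeq promoters of 300 bases were at hand for 9 of the 10 genes, 14 promoters in all, and all but *Pard6g* had one. AACAAT was present in 1 of the 14, that of *Crb1*, and ACAAAG in 2, those of *Crb1* and *Numb*. Over all 32851 RefSeq promoters of this length, 10.7% held AACAAT, 18.7% held ACAAAG and 27.0% held either. Matches to such short motifs describe the letters and not binding.

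The Par complex is a scaffold, *Pard3*, joined to one of 3 Par6 adaptors and to atypical protein kinase C, here *Prkci*. *Pard3* (ENSMUSG00000025812, chromosome 8 from 127063893 to 127612286) had 23.2, 24.6 and 24.8 CPM in control and 19.5, 18.4, 21.8 and 15.7 CPM in the libraries labelled Sox9, so the groups did not overlap. Its log2 fold change was -0.35 (standard error 0.17, 95% interval -0.72 to 0.02, adjusted p = 0.129, edgeR). The 3 Par6 adaptors had different values. *Pard6a* (ENSMUSG00000005699), a short gene on the same chromosome from 105701148 to 105703496, was at 34.0, 35.4 and 34.99 CPM in control. In the libraries labelled Sox9 it was at 24.7, 26.0, 21.0 and 33.1 CPM, each below every control, the last by little. Its log2 fold change was -0.42 (standard error 0.17, 95% interval -0.78 to -0.05), with an unadjusted p of 0.0274 and an adjusted p of 0.0726 in edgeR. Groups that do not overlap are common in these data: all 4 libraries labelled Sox9 were below all controls for 18.4% of the protein-coding genes and above all controls for 19.8%. Of the 10 genes this held for 3 (*Prom1*, *Pard3* and *Pard6a*, all below) and 1 (*Crb1*, above). In the deposited FPKM, which carry no TMM factor, *Prom1* and *Crb1* still did not overlap between the groups, whereas *Pard3* (0.038 to 0.043 in control and 0.031 to 0.043 in the libraries labelled Sox9) and *Pard6a* (13.1 to 14.1 and 9.82 to 15.3) did.

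*Pard6g* (ENSMUSG00000056214, chromosome 18 from 80046890 to 80119639) had the smallest difference. It had 36.3, 40.4 and 39.3 CPM in control and 33.8, 34.2, 49.7 and 37.5 CPM in the libraries labelled Sox9, where replicate 3 was above every other library. The means were 38.7 ± 2.11 CPM (SD, n = 3) and 38.8 ± 7.48 CPM (SD, n = 4), and the 95% interval of the log2 fold change ran from -0.34 to 0.36 (adjusted p = 0.979, edgeR). *Pard6b* (ENSMUSG00000044641, chromosome 2 from 168081004 to 168101203) was low, with 11 to 45 counts per library, at 3.54, 3.21 and 3.56 CPM in control and 4.67, 4.25, 3.47 and 2.31 CPM in the libraries labelled Sox9. The controls lay within the range of the other group (log2 fold change 0.12, 95% interval -0.61 to 0.85, adjusted p = 0.822, edgeR). The kinase *Prkci* (ENSMUSG00000037643, chromosome 3 from 30995747 to 31052959) was at 5.73, 9.47 and 7.93 CPM in control and 9.48, 6.52, 7.60 and 4.19 CPM in the libraries labelled Sox9. The control range lay within that of the other group, with a log2 fold change of -0.14 (95% interval -0.78 to 0.50, adjusted p = 0.758, edgeR).

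*Crb2* (ENSMUSG00000035403, chromosome 2 from 37776249 to 37799103), the other Crumbs gene measured among the 10, did not share the direction of *Crb1* in most fits and was the least certain of all. Its counts were 4, 39 and 23 in the controls against 17, 17, 7 and 12 in those labelled Sox9. In CPM the controls had 0.38, 3.39 and 2.34 and the libraries labelled Sox9 had 2.33, 1.61, 0.78 and 2.52. Both the lowest and the highest value were in control libraries, and the 95% interval of its log2 fold change ran from -1.48 to 1.05 (estimate -0.22, adjusted p = 0.807, edgeR). This interval does not exclude a change of 2-fold in either direction. Exons of *Dennd1a*, on the opposite strand, overlap those of *Crb2* and held 55 to 116 counts per library. Reads of this pair cannot be told apart if strand was not used in counting. Its log2 fold change was 0.17 (adjusted p = 0.637, edgeR).

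*Numb* (ENSMUSG00000021224) lies on the reverse strand of chromosome 12 from 83794034 to 83921934. It was at 20.9, 40.3 and 31.8 CPM in control and 24.6, 34.1, 28.6 and 26.6 CPM in the libraries labelled Sox9, all 4 of which were within the control range. Its log2 fold change was -0.12 (95% interval -0.56 to 0.32, adjusted p = 0.694, edgeR). Its homologue *Numbl* (ENSMUSG00000063160, chromosome 7 from 27258433 to 27282144) was at 7.26, 6.17 and 6.61 CPM in control and 7.42, 4.25, 5.14 and 3.77 CPM in the libraries labelled Sox9. For *Numbl*, 3 of these 4 libraries were below every control and 1 was above (log2 fold change -0.37, 95% interval -1.0 to 0.27, adjusted p = 0.362, edgeR). Annotated transcripts that overlap exons of *Numb* (*Gm46367*) and *Numbl* (*Gm44641*) were not analysed here. Of the 9 genes that were not called, 6 had a 95% interval that stayed within a 2-fold change in both directions. The exceptions were *Crb1*, *Crb2* and *Numbl*, the last by a small margin.

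**Figure D2:**
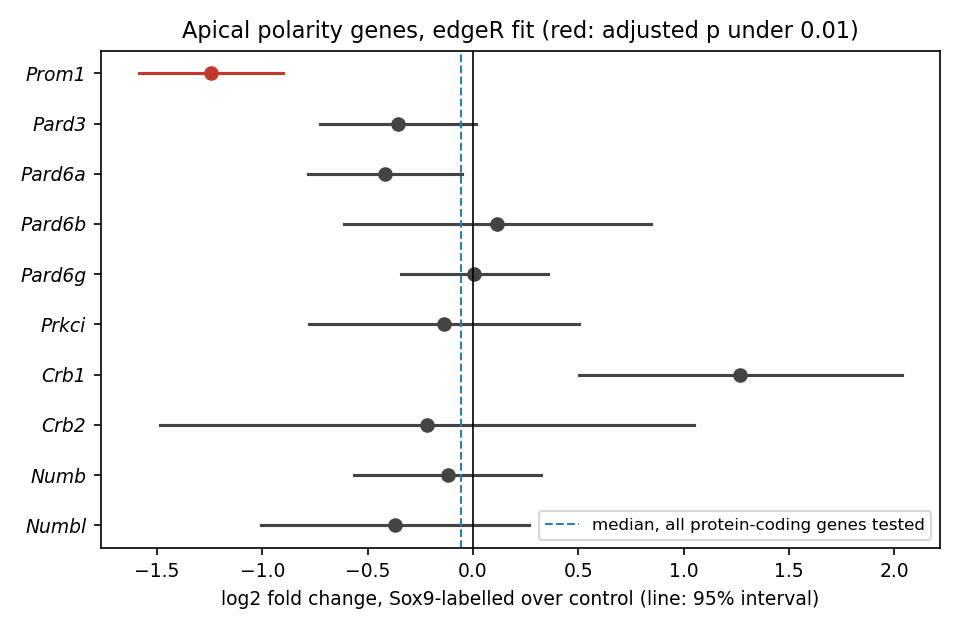
Log2 fold change of each of the 10 genes, libraries labelled Sox9 over control, with the 95% interval from the edgeR fit as a horizontal line, the called gene in red, and the median of all protein-coding genes tested dashed in blue. The interval of *Prom1* (-1.58 to -0.90) lies wholly below 0, that of *Crb1* (0.50 to 2.03) wholly above 0, and that of *Crb2* is the widest.

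The share of genes called in these data depended on expression level, so each gene was set beside genes of its own level (limits chosen after the values were seen). *Prom1* and *Pard6g* were among 3442 protein-coding genes whose average log2 CPM was 5 to 7, of which 6.39% were called lower and 0.872% higher, with a median log2 fold change of -0.22. *Pard3*, *Pard6a* and *Numb* belonged to the 3665 genes with 3 to 5, of which 4.31% were called lower and 4.17% higher (median -0.09). The other 5 genes, *Crb1* included, belonged to the 3500 genes with 1 to 3, where 22.5% were called higher and 1.20% lower, and the median was 0.60. The difference of *Crb1* was thus on the side to which low genes moved in general, and that of *Prom1* exceeded the median of its class. *Pard6b*, *Prkci*, *Crb2* and *Numbl*, of the same low class as *Crb1*, had log2 fold changes from -0.37 to 0.12, all under the median of that class.

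**Figure D3:**
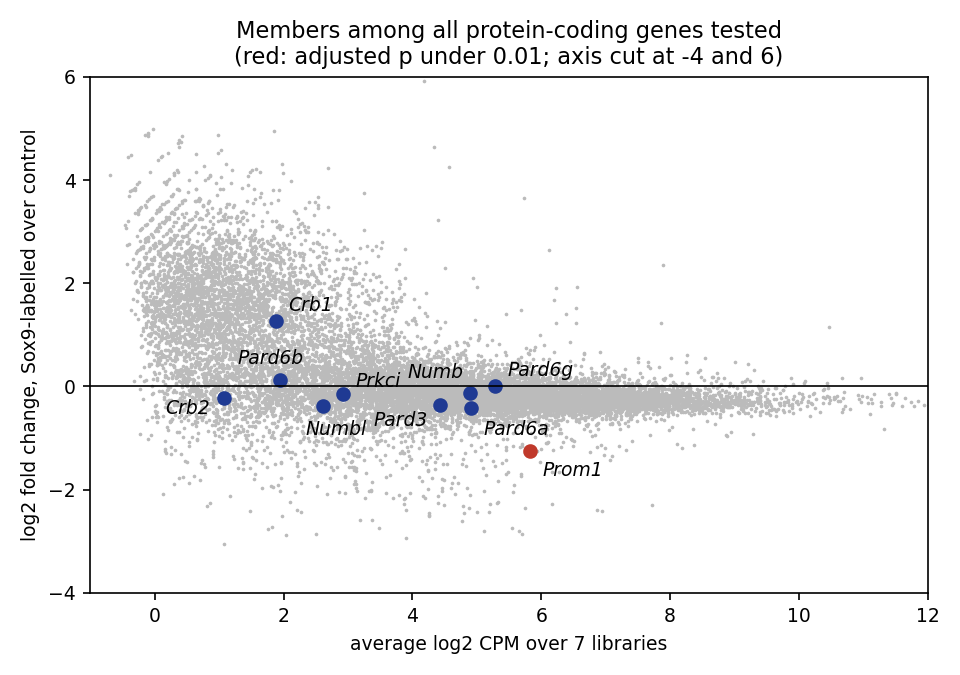
Log2 fold change (libraries labelled Sox9 over control) against average log2 CPM over the 7 libraries, one grey point for each protein-coding gene tested, with the 10 genes in blue or, where called, in red; points beyond the axes are not drawn. Grey points at low levels lie mostly above 0, where *Crb1* lies, whereas *Prom1* lies below the bulk of genes of its level.

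Per kilobase of exon, which allows different genes to be compared, *Pard6a* had the highest level in control with 22.0 CPM per kb. It was followed by *Pard6g* (12.3 CPM per kb), *Prom1* (11.7 CPM per kb) and *Numb* (7.92 CPM per kb), and the ranges over libraries of *Pard6g* and *Prom1*, and of *Prom1* and *Numb*, overlapped. The next levels were those of *Pard3* (1.67 CPM per kb), *Prkci* (1.39 CPM per kb), *Pard6b* (1.01 CPM per kb) and *Numbl* (0.770 CPM per kb). Here neighbours overlapped except for *Pard6b* and *Numbl*, and the ranges of *Numb* and *Pard3* and of *Numbl* and *Crb2* did not overlap either. *Crb2* (0.304 CPM per kb) and *Crb1* (0.137 CPM per kb) were lowest, with overlapping ranges.

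In the libraries labelled Sox9 the order was the same at the top, with *Pard6a* at 16.6 and *Pard6g* at 12.3 CPM per kb. *Prom1* (4.91 CPM per kb) now stood below *Numb* (7.27 CPM per kb), with no overlap between their libraries, and the Crumbs genes had exchanged places (*Crb1* 0.336 and *Crb2* 0.270 CPM per kb, overlapping). Among the Par6 transcripts, *Pard6a* was above *Pard6g* without overlap in control, whereas their ranges overlapped in the libraries labelled Sox9 (13.3 to 20.9 and 10.7 to 15.8 CPM per kb). Reverse transcription was primed at the poly-A tail, so levels per length are approximate.

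The deposited FPKM values gave another order. For each of the 10 genes, the length that links its counts to its FPKM lay within 2% of the whole span of the gene, introns included, so a gene with long introns had a low FPKM. *Pard6a*, with 1.58 kb of exons in a span of 2.35 kb, was at 13.6 ± 0.466 FPKM in control (SD, n = 3) and 12.0 ± 2.33 FPKM in the libraries labelled Sox9 (SD, n = 4), and it was the only one of the 10 with a mean of at least 1. *Prom1* was at 0.705 ± 0.148 FPKM in control and 0.346 ± 0.0305 FPKM in the libraries labelled Sox9. *Pard3*, whose 14.5 kb of exons are spread over 548 kb, was at 0.0403 ± 0.00252 and 0.0368 ± 0.00532 FPKM, place 5 of the 10 genes in CPM per kb of exon but place 9 in CPM per kb of span. FPKM were not scaled by TMM, and in them *Crb1* was 2.76 times and *Prom1* 0.491 times its control mean in the libraries labelled Sox9.

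Levels varied unequally among control libraries. The coefficient of variation over the 3 controls was 1.99% for *Pard6a*, 3.56% for *Pard3* and 5.45% for *Pard6g*. It was 20.1% for *Prom1*, 24.3% for *Prkci*, 31.3% for *Numb* and 74.9% for *Crb2*. For these last 4 genes control replicate 1 was the lowest of the 3 controls. It was also lowest for the summed level of 11 radial glia markers (*Sox2*, *Pax6*, *Hes1*, *Hes5*, *Slc1a3*, *Fabp7*, *Vim*, *Nes*, *Hopx*, *Ptprz1*, *Notch1*), with 787 CPM against 1280 and 1188 CPM in the others.

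*Prom1* is itself a transcript of radial glia, and the radial glia markers moved with it. They summed to 563, 610, 476 and 573 CPM in the libraries labelled Sox9, each below every control (exact permutation test, two-sided, p = 0.0286). Of the 10 markers tested, 4 were called lower (*Slc1a3*, *Fabp7*, *Pax6* and *Vim*) and 0 higher (9 lower and 0 higher at an unadjusted p under 0.05), beside 3.88% and 19.4% of all protein-coding genes lower at the respective threshold. The median log2 fold change of these markers was -1.16, and no marker was at 0 in either group. The count of markers called lower was 2 without control replicate 2 or control replicate 4, 6 without control replicate 1, and 2 after cyclic loess normalization. In bulk samples such as these, fewer cells of a type and less RNA per cell cannot be told apart. Per 1000 CPM of radial glia markers, *Prom1* stood at 77.8 ± 4.54 CPM (SD, n = 3) in control and 63.9 ± 9.22 CPM (SD, n = 4) in the libraries labelled Sox9, a ratio of 0.820. The groups overlapped in this measure (72.8 to 81.7 against 56.1 to 75.4 CPM), and the difference did not pass the test (exact permutation test, two-sided, p = 0.0857). This ratio was chosen after the values were seen. The part of the radial glia markers in the lower level of *Prom1* was not tested further.

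**Figure D4:**
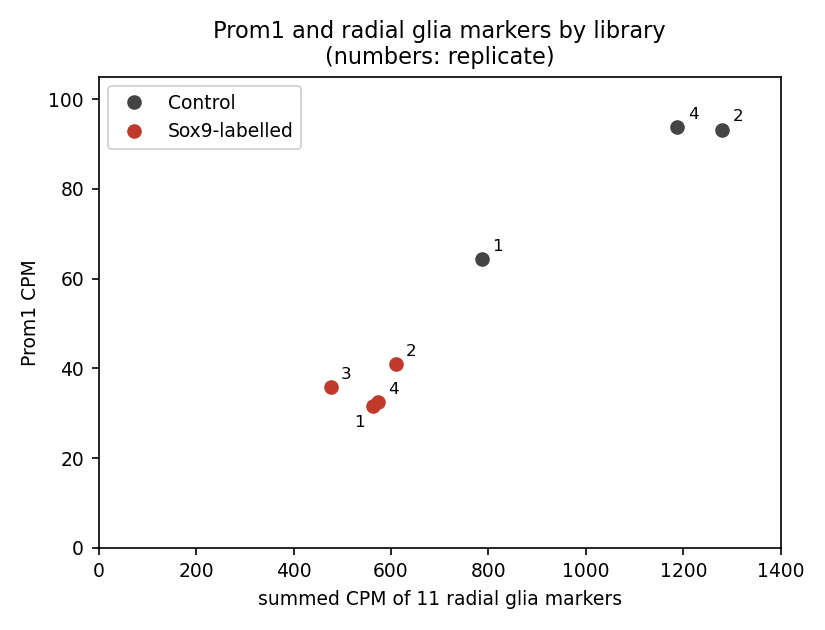
CPM of *Prom1* against the summed CPM of 11 radial glia markers, one point per library with its replicate number, control in grey and labelled Sox9 in red, both axes starting at 0. The 4 libraries labelled Sox9 are low on both axes (31.6 to 41.0 CPM of *Prom1*), and control replicate 1 lies between them and the other controls.

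Markers of other cells also differed between the groups, where 3.88% of all protein-coding genes were called lower and 9.96% higher. Intermediate progenitor markers summed to 749 to 830 CPM in control and 542 to 667 CPM in the libraries labelled Sox9, with 2 of 9 called lower and 0 higher, and neuron markers to 14261 to 17965 and 13324 to 15481 CPM, with 0 of 10 called (2 lower and 0 higher at an unadjusted p under 0.05). Astrocyte markers summed to 201 to 448 and 85.7 to 113 CPM. The largest part was *Aldoc* (230 ± 94.7 CPM in control and 42.6 ± 12.0 CPM in the libraries labelled Sox9). *Slc1a2* and *S100b* of this list were called higher. The exact permutation test (two-sided) gave p = 0.0286 for intermediate progenitor and for astrocyte markers and p = 0.2 for neuron markers. Markers of rarer cells were higher in sum in the libraries labelled Sox9. Choroid plexus markers rose from 5.56 to 7.83 CPM in control to 25.1 to 39.6 CPM, oligodendrocyte precursor markers from 4.08 to 5.90 CPM to 19.7 to 37.5 CPM, and multiciliated cell markers from 2.69 to 4.37 CPM to 9.64 to 14.4 CPM (exact permutation test, two-sided, p = 0.0286 for each of these 3 lists). In the multiciliated list most reads were on *Dnah5* (2.12 ± 0.374 and 7.53 ± 1.05 CPM), whereas *Foxj1*, *Ccdc153*, *Rarres2* and *Tmem212* had 0 to 5 counts in every library and were not tested. Endothelial markers were at 6.12 to 14.3 and 18.9 to 49.2 CPM, and mural and meningeal markers at 9.84 to 11.6 and 16.5 to 31.6 CPM (p = 0.0571 each, exact permutation test). Microglia (10.6 to 37.2 and 16.8 to 65.5 CPM) and erythroid markers (2.10 to 24.7 and 14.6 to 94.8 CPM) overlapped between the groups (p = 0.686 and p = 0.2, exact permutation test). Of the markers tested, 2 of 8 for astrocytes were called higher and 3 lower. Those called higher were 5 of 6 for oligodendrocyte precursors, 3 of 5 for choroid plexus, 2 of 3 for multiciliated cells, 2 of 7 for endothelial cells, and 1 each of 8 for microglia, 6 for erythroid cells and 7 for mural and meningeal cells, beside 22.5% called higher of the protein-coding genes at the level of *Crb1* (average log2 CPM of 1 to 3). Not all markers lie in that class: *Olig1*, *Olig2* and *S100b* lie below it and *Aldoc* above. The 2076 protein-coding genes below it had a median log2 fold change of 1.53, and their share called was not computed. Markers such as *Olig1*, *Olig2* and *Pdgfra*, with 0 to 3 counts in each control, passed the filter only through the libraries labelled Sox9. A call of these could only be higher. The counts of markers called were not stable. When 1 library at a time was left out, they were 3 to 4 for oligodendrocyte precursors, 2 to 3 for choroid plexus, 1 to 2 for multiciliated cells (2 only without replicate 2 labelled Sox9), 2 to 4 for endothelial cells (4 without control replicate 2), 0 to 1 for astrocytes and for microglia, 0 to 4 for erythroid cells (4 without control replicate 2) and 1 to 2 for mural and meningeal cells. The number of oligodendrocyte precursor markers tested also fell, to 3 without replicate 1 labelled Sox9 and to 4 without replicate 2 or 4. In these fits every such marker tested was called higher. After cyclic loess normalization the counts called higher were 1 each for oligodendrocyte precursors, choroid plexus and multiciliated cells and 0 for the other 5 lists. No gene of these lists was at 0 in all libraries of either group. The 1372 chemoreceptor genes, which neocortical cells are not known to use, summed to 113 to 155 CPM in control and 342 to 481 CPM in those labelled Sox9 (p = 0.0286, exact permutation test), and 592 of them were at 0 in control and 305 in the libraries labelled Sox9. *Crb1* moved in the direction of these low transcripts, and their part in its difference was not tested.

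Partners of the 10 genes were examined as 7 lists with 82 genes in all, 79 of them tested, of which 7 were called lower and 4 higher, beside 3.88% of all protein-coding genes called lower and 9.96% called higher. These counts varied with the libraries included: leaving out 1 library at a time gave 3 to 7 lower, the least without control replicate 2, control replicate 4 or replicate 3 labelled Sox9, and 1 to 3 higher, the least without control replicate 4. Among 8 regulators of the Par complex, *Ect2*, whose product acts in cytokinesis, was lower (42.7 ± 16.7 CPM in control, n = 3, and 15.0 ± 2.14 CPM in the libraries labelled Sox9, n = 4, log2 fold change -1.51, adjusted p = 0.000719, edgeR). The others, among them *Cdc42*, *Rac1* and the second atypical kinase *Prkcz*, were not called (list median -0.25). *Cdc42*, the GTPase that binds Par6, had a log2 fold change of -0.28 and an adjusted p of 0.0429 in edgeR. *Prkcz* was at 69.0 ± 10.7 CPM (SD, n = 3) in control and 69.3 ± 5.40 CPM (SD, n = 4) in the libraries labelled Sox9.

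Among 9 tested partners of the Crumbs complex, 1 was lower and 1 was higher, with a median of 0.00. *Mpp5*, which encodes the Pals1 scaffold that binds the Crumbs tail, fell from 22.1 ± 4.56 CPM (SD, n = 3) to 12.0 ± 2.68 CPM (SD, n = 4), with a log2 fold change of -0.89 (adjusted p = 0.00888, edgeR). This call was close to the threshold: it was lost in 6 of the 7 fits that left out 1 library (all but that without control replicate 1), with protein-coding genes only, with either filter stricter than the default, after cyclic loess, in glmTreat and with the replicate block by titles. *Epb41l4b*, a FERM domain protein, rose from 1.20 ± 0.370 CPM to 4.60 ± 1.67 CPM (log2 fold change 1.92, adjusted p = 0.00489, edgeR). Its call was lost without control replicate 2, control replicate 4 or replicate 1 labelled Sox9, after cyclic loess, in glmTreat, with either replicate block and with a mean FPKM of at least 1. In the low-count range of *Epb41l4b* many genes were called higher, as given above for *Crb1*. Of 12 basolateral proteins, which oppose the apical complexes, 1 was higher and 0 were lower (2 higher and 3 lower at an unadjusted p under 0.05). This was *Lrrc7*, a scaffold also found at synapses, which rose from 6.16 ± 0.839 CPM to 16.1 ± 3.28 CPM (log2 fold change 1.38, adjusted p = 0.00133, edgeR), whereas *Scrib*, *Dlg1* and *Llgl1* were not called. The calls of *Lrrc7* and of *Ect2* were lost with the replicate block by titles and with a mean FPKM of at least 1.

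In the belt of adherens and tight junctions, 3 of 18 genes were lower and 2 were higher. *Ctnna1*, the alpha-catenin that links cadherins to actin, fell from 208 ± 57.1 CPM (SD, n = 3) to 77.2 ± 19.9 CPM (SD, n = 4), a log2 fold change of -1.42 (adjusted p = 0.000323, edgeR). The junctional adhesion molecules *Jam2* and *Jam3* fell as well, with log2 fold changes of -1.10 and -0.78. The epithelial genes *Cdh1* and *Ocln* rose from 0.975 ± 0.782 and 1.01 ± 0.139 CPM to 4.07 ± 0.805 and 4.04 ± 1.34 CPM. Both are of the low class of *Crb1*, with its 22.5% called higher. With 1 library left out, 1 to 3 genes of the belt were called lower (1 without control replicate 2, control replicate 4, or replicate 1, 2 or 3 labelled Sox9) and 0 to 1 higher (0 without control replicate 4 or replicate 3 labelled Sox9). The count called higher was also 0 with either replicate block, after cyclic loess and in glmTreat. The count called lower was 1 with the block by titles and in glmTreat, and 2 with the block by descriptions and after cyclic loess. *Cdh2*, the N-cadherin of radial glia, was not called (207 ± 53.1 and 160 ± 56.2 CPM, log2 fold change -0.37, adjusted p = 0.263, edgeR). Of 9 tested genes of the apical membrane and cortex, *Msn*, which links membrane proteins to actin, had a log2 fold change of -1.90 (adjusted p = 7.82e-05, edgeR), and *Magi1*, a junction scaffold, one of -1.12 (adjusted p = 0.00278, edgeR). The number called lower in this list was 1 without control replicate 2, control replicate 4 or replicate 3 labelled Sox9. The remaining 7 were not called, and the median of this list was 0.25.

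Partners of Numb in endocytosis and ubiquitination (11 tested, median -0.00) and transcription factors and other proteins known from delamination (13 tested, median 0.07) had no called gene in edgeR with TMM scaling and the default filter. At an unadjusted p under 0.05, 1 of the former was higher and 1 lower, and 2 of the latter were higher and 2 lower, while 1 gene was called lower in each list by DESeq2, by edgeR with DESeq2's size factors and by edgeR without a filter, and 1 partner of Numb was called higher without replicate 3 labelled Sox9. *Insm1*, a factor that promotes delamination, was at 33.1 ± 1.29 CPM in control and 31.9 ± 3.71 CPM in the libraries labelled Sox9 (adjusted p = 0.837, edgeR). *Insm1* and *Neurog2* are also in the intermediate progenitor list, and *Notch1* of the Numb partners is also in the radial glia list. *Akna*, a centrosomal protein of delaminating cells, was at 14.5 ± 3.72 and 11.8 ± 1.81 CPM (adjusted p = 0.349, edgeR).

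**Figure D5:**
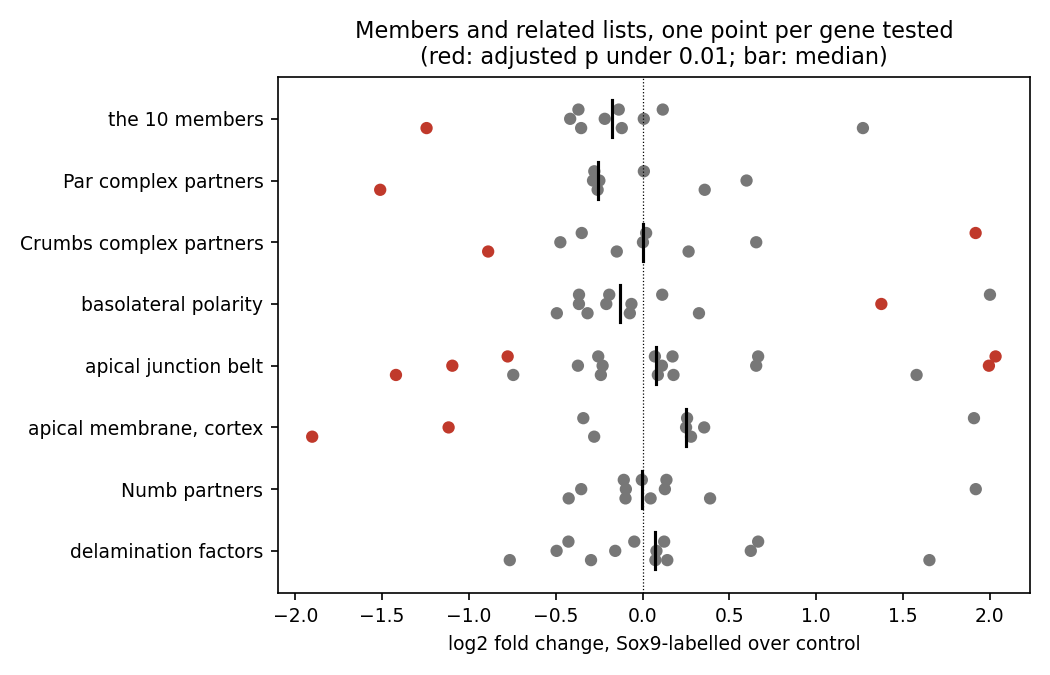
Log2 fold change (libraries labelled Sox9 over control) of each gene tested, one row for the 10 genes and one for each of the 7 related lists, with called genes in red and the median of each row as a vertical bar. Row medians lie between -0.25 and 0.25, and called genes lie on both sides of 0.

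For the 3 genes of highest CPM, the genes with the most similar profile were sought over the 7 libraries (Pearson's r of log2 CPM with a pseudocount of 0.5, over 14266 genes, as a description). For *Prom1* these were *Pea15a* (r = 0.996), *Ube3b* (r = 0.996) and *Sass6* (r = 0.995). *Pea15a* fell from 655 ± 117 CPM (SD, n = 3) to 335 ± 23.3 CPM (SD, n = 4), a log2 fold change of -0.97. *Ube3b* and *Sass6* had smaller log2 fold changes, -0.44 and -0.38, and were not called (adjusted p = 0.0236 and 0.0321, edgeR). A high r thus does not mean a change of similar size. For *Pard6a* they were *Prss36* (r = 0.993), *Tcea1* (r = 0.990) and *Ndufaf5* (r = 0.986), and for *Pard6g*, *Tgfb2* (r = 0.926), *Trib2* (r = 0.910) and *Layn* (r = 0.900). The 7 points fall into 2 groups that also differ in TMM factor, and no test was made on r.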

How the data were processed

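The authors sequenced 7 libraries of High RFP cells, 3 control and 4 labelled Sox9. Groups and replicate numbers follow the sample titles, in which controls are numbered 1, 2 and 4. The 10 genes, the related lists and the marker lists were chosen with earlier results of these data known. The cDNA was primed with poly-dT, amplified by PCR and not tagged with molecular identifiers. According to the submitters' processing notes, bcl2fastq 2.17.1.14, STAR 2.5.2b and GRCm38 were used. The deposited tables hold raw read counts per Ensembl gene, as whole numbers, and FPKM values that the authors scaled by gene length and library size. The program that counted reads, and its use of strand or introns, are not given in the sources used here.

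GENCODE annotation of GRCm38 gave symbols, biotypes and coordinates for 36345 of 38124 genes. Motifs were searched on both strands of RefSeq promoters (GRCm38.p6). Counts were tested with edgeR 4.0.16 (R 4.3.3) by the quasi-likelihood test, two-sided, without covariates, after TMM scaling and filterByExpr. P-values were adjusted over all 16522 genes tested, and calls were made at an adjusted p-value under 0.01 and counted over 14267 protein-coding genes. Standard errors are the log2 fold change divided by the square root of F. Single values per library were compared by exact permutation over 35 splits (Python 3.11.15, scipy 1.17.1). The edgeR, DESeq2 and loess fits were run on simulated counts in which some genes changed by known folds. The simulation held no shift with expression level such as that seen here, and its outcome is not used. Named were the 10 genes, the called genes of each related list (at most 3 by p-value in each direction), 3 genes of most similar profile for each of 3 genes, and *Sox9*. Other partners were named after their values were seen.

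The 18 alternatives were DESeq2 1.42.0, DESeq2's size factors, cyclic loess with limma 3.58.1, fitting without a filter, with at least 10 counts in every library, with mean FPKM not under 1 or with protein-coding genes only, glmTreat against 1.5-fold, an adjusted p under 0.05, a replicate block by titles or by descriptions, and leaving out each of the 7 libraries. No pair of replicates agreed within sampling noise (chi-square per degree of freedom from 7.54 to 20.7).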

Additional observations from a re-analysis of the deposited data

How the results depend on the processing

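*Prom1* was lower, with the same call, under each of the 17 alternatives in which it was tested. With a mean FPKM of at least 1 it was not tested and 0 of the 10 genes were lower, since only *Pard6a* remained. *Crb1* passed the threshold with at least 10 counts in every library and at an adjusted p under 0.05, where 1 of the 10 genes was higher. The other genes were not called under any alternative, and some turned in sign within their error. The log2 fold change of *Pard6g* was -0.0773 with DESeq2, -0.0774 with its size factors, -0.0815 without a filter, -0.14 with the replicate block by titles and -0.000233 by descriptions, and -0.11 to 0.0939 when 1 library was left out. *Pard6b* was at -0.50 after cyclic loess, *Prkci* at 0.0304 with the block by descriptions and -0.33 to 0.0767 with 1 library left out, and *Crb2* at 0.31 with the block by titles and -0.72 to 0.36 with 1 library left out. *Numb* was at 0.10 after cyclic loess, 0.0151 with at least 10 counts in every library, and -0.35 to 0.12 with 1 library left out. Deviations of same-numbered libraries had r of -0.04, 0.12 and -0.00 by titles, and 0.02 for the third pair by descriptions. Pairs that share no number had r from -0.0954 to 0.0776. The main fit does not read the numbers as pairs, but so few pairs cannot exclude a shared batch. With the replicate block, 340 protein-coding genes were higher and 213 lower by titles, and 842 and 343 by descriptions. The block gave 0 higher and 2 lower genes of the related lists by titles and 1 higher by descriptions. Over all protein-coding genes (1421 higher, 553 lower), cyclic loess gave 316 and 252, at least 10 counts 549 and 198, FPKM of at least 1 61 and 95, glmTreat 710 and 138, and an adjusted p under 0.05 2647 and 1744. DESeq2 called 1245 lower, its size factors 931 and no filter 1408. Leaving out 1 library gave 677 to 1223 higher and 201 to 461 lower. Of the related lists (4 higher, 7 lower), cyclic loess called 1 and 4, FPKM of at least 1 0 and 0, glmTreat 1 and 3, an adjusted p under 0.05 12 and 12, and at least 10 counts 4 lower. Leaving out 1 library gave 1 to 3 higher and 3 to 7 lower. The median log2 fold change of protein-coding genes was -0.06, and 0.09 with DESeq2. The cause of these shifts was not tested. Fewer genes enter the stricter filters. *Crb1*, *Crb2* and *Pard6b* had the fewest counts of the 10 genes, at most 50 in a library, and the intervals of *Crb1* and *Crb2* are wide.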
